A study of Bos taurus with 2 samples.

Results

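The sequences described here are the small RNA inserts of 27, 28 and 29 nt in liver of Angus bulls that were read at least 100 times over both libraries. They number 732 of the 5077 inserts of 15 to 29 nt with as many reads, and 214 are of 27 nt, 258 of 28 nt and 260 of 29 nt. They were selected on their summed read count, so their abundance is a description. The ratio between the libraries was not part of this rule, although an insert can pass it by its reads in 1 library alone. Bulls of a line bred for low residual feed intake (RFI), here the low line, were compared with bulls of the high line, bred for high RFI. RFI is the feed eaten beyond what weight and growth predict, so a low-RFI animal eats less than predicted. Liver biopsies were taken at 13 months of age, and equal amounts of RNA (1 µg an animal) from 13 bulls of each line were pooled into 1 library a line. With 1 pooled library a line there is no replicate, no test was made, and the line, the pool and the library preparation cannot be told apart. All intervals below are exact 95% intervals that cover counting error only, since the reads carry no molecular identifiers.

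RNAs of this length are longer than microRNAs and overlap the size of piRNAs, which guide transposon silencing in the germline and mostly begin with U. In a somatic tissue such as liver, this size window also holds pieces of structured RNAs. C/D box small nucleolar RNAs guide methylation of ribosomal RNA: the C box lies near the 5′ end, the D box near the 3′ end, and an internal D′ box follows a guide stretch. Transfer RNAs are cut by endonucleases such as angiogenin into 5′ fragments that end in or near the anticodon loop. Mitochondrial tRNAs carry a methyl group on the purine at base 9, placed by the TRMT10C complex, and reverse transcriptase can misread methylated bases. Y RNAs bind the Ro60 protein, and U1 and U2 are RNAs of the spliceosome.

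The most abundant insert of each class, and others on which the results turn, are printed here in the DNA letters of the reads. Capitals mark the 9 nt stretch by which each was assigned to an RNA. In the C/D box set, capitals mark CTGA, the core of a D or D′ box, and TGATG, the core of the C box, where it starts at base 2 to 8.
tRNA-Gly, 28 nt: gcattggtggttcagtgGTAGAATTCtc
tRNA-Gly, 27 nt: gcattgtggttcagtgGTAGAATTCtc
tRNA-Gln, 29 nt: ggttccATGGTGTAAtggttagcactctg
tRNA-Pro, 28 nt: ggctttggtctaggGGTATGATTctcgc
C/D box end 1, 28 nt: tagcatgttgacaagtctaactCTGAag
C/D box end 2, 27 nt: gcgggTGATGcgaactggagtCTGAgt
C/D box end 3, 28 nt: atgcagtgtggaacatgatgaaCTGAac
C/D box end 4, 28 nt: accccgTGATGgaactgaggatCTGAgg
28S rRNA, 29 nt: tgctaaacCATTCGTAGacgacctgcttc
18S rRNA, 28 nt: ttcattaatcaaGAACGAAAGtcggagg
5S rRNA, 27 nt: cctgggAATACCGGGtgctgtaggctt
mitochondrial tRNA-Pro, 28 nt: cagggaattGTTTAAATAgaacttcagc
mitochondrial tRNA-Cys, 27 nt: cacgTTGAATTGCaaattcagagaagc
mitochondrial 16S rRNA, 27 nt: actagacCTAGCCCAAagataccctct
Y RNA, 28 nt: cttctcactactgcaCTTGACTAGtctt
U1 snRNA, 27 nt: ggggGACTGCGTTcgcgctttcccctg

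Inserts of 27 to 29 nt accounted for 4.13% of the low line's reads of at least 15 nt (interval 4.12% to 4.14%) and 3.93% in the high line (3.92% to 3.94%). Without tags read once both shares were 3.73%. The lengths differed in direction: 27 nt held 1.22% of the reads of the low line and 0.957% of those of the high line, 28 nt held 1.48% and 1.80%, and 29 nt held 1.43% and 1.17%. The 732 inserts carried 244033 reads in the low line, or 53.3% of that library's 27 to 29 nt reads. They carried 339299 reads in the high line, or 69.2%. The library depths behind these values were 11094463 reads of 15 nt or longer in the low line and 12481222 in the high line. At the limit of 100 reads, 70 inserts less than 10 reads above it had a median log2 ratio of low over high of 0.18, and 79 inserts at most 10 reads below it had 0.56.

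The first base was spread over all 4 bases when inserts were counted. G began 216 of the 732 inserts, A began 177, C began 175 and T began 164 (22.4%). Among the 3709 inserts of 18 to 26 nt, a range that holds the microRNAs, T began 42.4%. By reads, T began 28.3% in the low line and 27.2% in the high line, against 74.6% and 78.5% for the 18 to 26 nt inserts. The lengths differed: T began 41.9% and 45.9% of the reads of the 29 nt inserts, the most frequent base there, and 8.94% and 9.16% of those of the 27 nt inserts. At the 3′ end C was the most frequent base, closing 302 inserts (41.3%), against 27% of the 18 to 26 nt inserts. The sequence CCA, which is added to the 3′ end of every mature tRNA, closed 15 inserts, or 2.05%.

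An RNA of origin was assigned to 494 inserts, by a 9 nt stretch of a known RNA or, for 70 of them, by CTGA followed by the last 2 or 3 bases. Nuclear-encoded ribosomal RNA gave 239 inserts, cytosolic tRNA 87, the C/D box end 70, mitochondrial tRNA 65, mitochondrial ribosomal RNA 15, Y RNA 13 and spliceosomal RNA 5. Of the reads in the 732 inserts, the low line had 26.2% in ribosomal RNA, 25.8% in the C/D box end, 24.4% in cytosolic tRNA and 2.82% in mitochondrial tRNA. In the high line the order was cytosolic tRNA 28.5%, C/D box end 24.6%, mitochondrial tRNA 23.8% and ribosomal RNA 13.0%. The other 238 inserts stayed without an origin and held 15.9% and 7.57% of the reads.

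Of the 732 inserts, 302 (41.3%) were at least 1.5-fold higher in the low line and 175 (23.9%) at least 1.5-fold lower, relative to all reads of 15 nt or longer. The same limits were passed by 33.7% and 36.0% of the 4345 inserts of 15 to 26 nt. The median log2 ratio of low over high was 0.33 for the 27 to 29 nt inserts and 0.08 for the shorter ones. Scaling by edgeR TMM factors moved every log2 ratio by -0.12, by DESeq2 size factors by -0.17, and by the total of 15 to 29 nt inserts by 0.24. The counts then ranged from 254 to 363 higher (34.7% to 49.6%) and from 156 to 200 lower (21.3% to 27.3%). The shares of the 15 to 26 nt inserts moved too, from 27.1% to 42.2% higher and from 32.4% to 39.1% lower. The median of the 27 to 29 nt inserts stayed above 0 under each scaling. The classes went in different directions, and they are described in turn.

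Of the 87 cytosolic tRNA inserts, the most abundant of which are 5′ ends, 33 (37.9%) were at least 1.5-fold lower in the low line and 18 (20.7%) higher. The inserts of 15 to 26 nt gave 36.0% lower and 33.7% higher. The share of lower tRNA inserts was thus near theirs, and the share of higher ones was below it. The direction depended on the tRNA. The most abundant insert of all, from tRNA-Gly, had 13879 reads in the low line and 27053 in the high line, which is 1.73-fold higher in the high line (interval 1.70 to 1.77). Summed over 32 inserts, tRNA-Gly was 1.80-fold higher in the high line, and 19 of the 32 passed the limit in that direction against 1 in the other. The tRNA-Gln insert had 227 reads in the low line and 1499 in the high line, 5.87-fold higher in the high line (5.10 to 6.78). The tRNA-Pro insert printed above went the other way, with 689 and 179 reads, 4.33-fold higher in the low line (3.67 to 5.13), and 5 of 6 tRNA-Pro inserts passed the limit in that direction. Of 6 tRNA-Asp inserts, 5 were also at least 1.5-fold higher in the low line, with a summed ratio of 2.48-fold (2.23 to 2.75). The sum over 22 tRNA-Glu inserts differed little, at 22697 and 27013 reads, 1.06-fold higher in the high line (1.04 to 1.08), a direction that turns when scaled to the 15 to 29 nt inserts. A 27 nt tRNA-Gly insert, the tenth in abundance, had 3631 and 6017 reads, 1.47-fold higher in the high line (1.41 to 1.54).

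For most tRNA inserts, these lengths were the minor part of the reads that shared their start. Reads with the same first 20 nt but no adapter, which come from RNA of 30 nt or longer apart from misread adapters, were 79.8% of all same-start reads in the median of 53 tRNA starts, and over 50% for 40 of them. The start of the most abundant tRNA-Gly insert had 661156 such reads in the low line and 1515049 in the high line, 96.9% and 97.5% of its reads. The 28 nt length held 2.05% and 1.76%. Over all 53 starts, the reads with no adapter were 1.74-fold higher in the high line, and the 27 to 29 nt reads were 1.44-fold higher. The 20 to 26 nt reads of these starts were 1.29-fold higher in the low line. Most reads with no adapter were of tRNA-Gly, 976945 of 1259256 in the low line and 2185048 of 2457809 in the high line. Those of tRNA-Ala, -Gln, -His, -Lys and -Val were also higher in the high line. Those of tRNA-Glu (1.34-fold), -Asp (1.95-fold), -Pro (1.73-fold), -Leu (1.51-fold) and -Ser (1.68-fold) were higher in the low line.

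Some tRNA inserts lacked a few bases that a more abundant start holds, where all reads that begin with the insert were set against all reads that begin with the longer start. Of 87 tRNA inserts, 29 equalled a more abundant start without 1 to 4 consecutive inner bases, and for 20 of these the gap began at bases 5 to 10 from the 5′ end. The same was found for 5 of 65 mitochondrial tRNA inserts, for none of the 70 C/D box ends and for none of the 239 ribosomal inserts. An example is the start below, in which the capital marks the base that the 27 nt tRNA-Gly insert lacks.
tRNA-Gly, longer start: gcattGgtggttcagtggtagaattctc
The tRNA-Gly insert without this G had 5140 reads in the low line and 9159 in the high line, which are a small part of the 780002 reads of any length that begin with this form. The complete start had 2212219 such reads, 2.84 times as many. Between the lines, the short form was 1.58-fold higher in the high line (1.53 to 1.64). The source of the gaps was not tested.

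The C/D box ends are described by their 3′ end. CTGA followed by exactly 2 last bases closed 63 of the 732 inserts (8.61%), and these held 25.4% of their reads in the low line and 24.1% in the high line. Of the 3709 inserts of 18 to 26 nt, 2.51% ended that way, and of all 157792 distinct inserts of 27 to 29 nt, 2.12%. With 3 last bases allowed there were 70 inserts, of which 28 also held TGATG starting at base 2 to 8. In such inserts the C box core is near the 5′ end, so the CTGA can be that of the internal D′ box. Whether a CTGA was of a D or a D′ box was not established. The combination of CTGA end and TGATG was in 0.404% of the 18 to 26 nt inserts. Shorter inserts had such ends too: CTGA and 2 or 3 last bases closed 153 inserts of 15 to 26 nt. Of the 65 distinct starts of the 70 inserts, which were chosen for having a 27 to 29 nt insert, 43 had fewer than 10% of their reads in tags with no adapter, and in the median 93.9% of same-start reads were of 27 to 29 nt. For the most abundant one, 91.4% of the same-start reads in the low line and 92.5% in the high line were of exactly 28 nt.

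The C/D box ends did not move together between the lines: 18 of 70 (25.7%) were at least 1.5-fold higher in the low line and 22 (31.4%) lower. Both shares were below the 33.7% and 36.0% of the 15 to 26 nt inserts. C/D box end 1 had 10942 reads in the low line and 25348 in the high line, 2.06-fold higher in the high line (2.01 to 2.11). C/D box end 3 had 3574 and 7462 reads, 1.86-fold higher in the high line (1.78 to 1.93). C/D box end 2 went the other way, with 8667 and 4498 reads, 2.17-fold higher in the low line (2.09 to 2.25). C/D box end 4 had 5615 and 4355 reads, a 1.45-fold difference (1.39 to 1.51) within the limit. The class median log2 ratio was 0.08, and it was -0.04 with TMM factors and -0.09 with DESeq2 size factors, so the class as a whole has no direction that holds over the scalings. The split also moved, from 18 higher and 22 lower to 25 and 15 when scaled to the 15 to 29 nt inserts and to 14 and 22 with DESeq2 size factors. Among the 28 inserts that also held TGATG, 9 were higher and 4 lower, with a median log2 ratio of 0.43. Their sum was 1.31-fold higher in the low line (1.29 to 1.34).

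A pair of C/D box inserts that differed by 1 base went in opposite directions. Positions are counted from 1 at the 5′ end, and the capital marks base 19.
Start of the pair, 20 nt: acactgtgctgattgtcaGg
The form with G had 1030 reads in the low line and 2296 in the high line, 1.98-fold higher in the high line. The form with T (G19T) had 768 and 296 reads, 2.92-fold higher in the low line (2.55 to 3.35). Of all reads with this start, 42.2% in the low line did not have G there (39.9% to 44.5%), against 11.3% in the high line (10.1% to 12.5%), and A and C together were at most 0.0371% in either library. The same site in the inserts that start 1 base later gave 38.7% and 10.3%. The 13 bulls of a pool cannot be separated, and the source of the 2 forms was not tested.

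Nuclear-encoded ribosomal RNA inserts past the limit were mostly higher in the low line, to an extent that depended on the RNA. Of 239, 121 (50.6%) were at least 1.5-fold higher and 9 (3.77%) lower, with a median log2 ratio of 0.60 that ranged from 0.43 to 0.84 over the scalings. The count of lower inserts was 4 when scaled to the 15 to 29 nt inserts, 14 with TMM factors and 18 with DESeq2 size factors. The count of higher inserts was 149, 106 and 97 in the same order. All 46 inserts of 5S rRNA passed the limit, with a sum of 11278 reads in the low line and 5339 in the high line, 2.38-fold higher (2.30 to 2.46). The lowest log2 ratio among them was 0.66, which no longer passes with TMM factors or DESeq2 size factors. The 5S insert printed above had 933 and 294 reads, 3.57-fold higher in the low line. Of 30 inserts of 5.8S rRNA, 22 passed it, with a summed ratio of 1.80-fold (1.72 to 1.88). The 106 inserts of 28S rRNA were split, with 36 higher (34.0%) and 8 lower (7.55%), and of 57 inserts of 18S rRNA 17 were higher (29.8%) and 1 lower (1.75%). For 28S and 18S the share of higher inserts was thus no greater than about the 33.7% of the 15 to 26 nt inserts. Their share of lower inserts was below the 36.0% of those. The 28S insert printed above had 4301 and 1810 reads, 2.67-fold higher in the low line (2.53 to 2.83), and the 18S insert had 3924 and 1861, 2.37-fold higher (2.24 to 2.51). The 1 insert of 18S that was lower begins within that insert and had 367 and 1128 reads, 2.73-fold higher in the high line (2.43 to 3.08). A 28S insert had 0 reads in the low line and 222 in the high line, at least 65.8-fold higher in the high line when 3 reads are taken as the limit that a count of 0 allows. Ribosomal inserts formed ladders: for 198 of the 239 another of the 732 inserts began 1 to 5 bases further along, against 30 of the 70 C/D box ends. Inserts assigned by the same 9 nt stretch overlap by that rule, which is not so for the C/D box ends. For cytosolic tRNA, also assigned by such stretches, the count was 22 of 87.

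Of the 7 classes with an origin, mitochondrial tRNA had the summed ratio farthest from 1. Of 65, 59 were at least 1.5-fold lower in the low line and 1 was higher, and the counts of lower inserts were 58 to 60 under every scaling. Their sum was 6873 reads in the low line and 80776 in the high line, 10.4-fold higher in the high line (10.2 to 10.7). The most abundant, a 5′ end of tRNA-Pro, had 1607 and 24848 reads, 13.7-fold higher in the high line (13.1 to 14.5). Inserts of tRNA-Cys had 11 reads against 1933 for the 27 nt form printed above, 156-fold (87.1 to 313), and 2 against 1416 for a 29 nt form, 629-fold (174 to 5202). A tRNA-Met insert had 5 and 361 reads, 64.2-fold (27.3 to 199), and a tRNA-Tyr insert 1 and 183, 163-fold (28.8 to 6460), with intervals that are wide at such counts. At the other end, tRNA-Phe differed by 1.31-fold (1.08 to 1.58) and tRNA-Asn by 1.66-fold (1.46 to 1.89), both higher in the high line as sums, although 1 of the 2 tRNA-Asn inserts was at least 1.5-fold higher in the low line. Of the shorter inserts of 15 to 26 nt with the same 9 nt stretches, 117 of 148 were lower in the low line and 11 higher.

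For the same starts, the longer reads did not follow as a sum. The 47 starts of mitochondrial tRNA inserts had 7530 reads of 27 to 29 nt in the low line and 83760 in the high line, 9.89-fold higher in the high line. Their reads with no adapter numbered 41394 and 41991, which is 1.11-fold higher in the low line, a direction that turns with DESeq2 size factors. The share of same-start reads with no adapter was 71.9% in the low line and 26.8% in the high line. The whole libraries also differed in that direction: 45.0% of the low line's reads of at least 15 nt and 35.1% of the high line's had no adapter. By RNA, 27 to 29 nt reads were higher in the high line for 14 of 14 mitochondrial tRNAs, and reads with no adapter for 7 of 14. For tRNA-Pro, 28 nt reads numbered 3666 and 55773, 13.5-fold higher in the high line. Its reads with no adapter numbered 4907 and 5267, 1.05-fold higher in the low line, a direction that turns with TMM factors or DESeq2 size factors. For tRNA-Tyr, 27 to 29 nt reads were 6.77-fold higher in the high line while reads with no adapter were 2.03-fold higher in the low line. For tRNA-Cys both were higher in the high line, 15.2-fold and 11.3-fold, as they were for tRNA-Ala, 31.0-fold and 24.3-fold, and tRNA-Lys, 41-fold and 20.2-fold. The share of same-start reads with no adapter was lower in the high line for 14 of 14, and the part of the library preparation in this was not tested.

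At base 9 of the mitochondrial tRNA inserts, several bases were read at 1 site. The tRNA-Pro insert of 28 nt was present in 4 forms, printed here with base 9 in capitals.
base 9 as T: cagggaatTgtttaaatagaacttcagc
base 9 as G: cagggaatGgtttaaatagaacttcagc
base 9 as A: cagggaatAgtttaaatagaacttcagc
base 9 as C: cagggaatCgtttaaatagaacttcagc
In the low line, T made up 44.2%, G 42.9%, A 9.69% and C 3.14% of 3633 reads. In the high line, T made up 44.9%, G 41.6%, A 10.5% and C 3.02% of 55340 reads. The form with G, the fifth insert in abundance, had 1560 and 22998 reads, 13.1-fold higher in the high line (12.5 to 13.8). The intervals of the libraries overlapped for each base, and all 4 forms were 13.0-fold to 14.7-fold higher in the high line. Over the starts of all 732 inserts, 6714 sites had at least 500 reads that shared the other 19 of the first 20 bases, and at 31 of them the main base had under 80% of the reads. Of those 31, 11 were at base 9, and of the 11 in mitochondrial tRNA, 8 were. The sites were in tRNA-Pro, -Tyr, -Glu, -Asn, -Phe, -Trp and -Thr. Their positions are counted from the start of the reads. A tRNA-Pro start that lacks 1 inner base is among them, and its base 9 is a later base of the complete start. Starts further along tRNA-Pro and tRNA-Tyr had their sites at bases 8 and 7, which were not counted as base 9. For tRNA-Tyr, 30.8% of reads in the low line and 31.4% in the high line did not have the main base G. For tRNA-Glu, 37.4% and 37.9% did not have the main base T. The tRNA-Trp site was different: A made up 47.8% in the low line and 21.4% in the high line, and T 16.1% and 38.4%. The annotated base at these sites was not compared, since no reference sequence was used.

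The remaining classes were small and mostly higher in the low line. Of 15 mitochondrial ribosomal RNA inserts, 8 were at least 1.5-fold higher and 1 lower, and their sum was 1.51-fold higher in the low line (1.46 to 1.56). Shorter inserts of 15 to 26 nt with the same stretches did not share that direction, with 9 of 36 higher and 20 lower. Of the 15 inserts, 13 shared 1 start in 16S rRNA, the largest set with 1 start, and differed at the 3′ end, where 10 ended in A and 7 in at least 2 A. A few are shown with the 9 nt stretch in capitals.
16S rRNA, end 1: actagacCTAGCCCAAagataccctct
16S rRNA, end 2: actagacCTAGCCCAAagataccctctcg
16S rRNA, end 3: actagacCTAGCCCAAagataccctca
16S rRNA, end 4: actagacCTAGCCCAAagataccctaaaa
Their reads were 2547 and 1949 for end 1, 310 and 292 for end 2, 2158 and 1536 for end 3, and 216 and 81 for end 4, the low line first. Mitochondrial RNAs are known to receive A tails, and whether these A are encoded was not compared with a reference. Of 13 Y RNA inserts, 10 were at least 1.5-fold higher in the low line and none lower. Their sum was 2160 and 1493 reads, 1.63-fold higher (1.52 to 1.74), and the most abundant had 408 and 345 reads, 1.33-fold (1.15 to 1.54). Only 4 inserts of 15 to 26 nt held the Y RNA stretches, with 1 higher and 2 lower. All 5 spliceosomal inserts were higher in the low line. The U1 insert had 819 and 223 reads, 4.13-fold (3.56 to 4.81), and 4 inserts of U2 had 284 and 181 in sum, 1.77-fold (1.46 to 2.14). With DESeq2 size factors 5 of the 15 mitochondrial ribosomal inserts, 6 of the 13 Y RNA inserts and 3 of the 5 spliceosomal inserts were higher past the limit, and 1 mitochondrial ribosomal insert was lower.

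The 238 inserts with no origin were higher in the low line for 121 (50.8%) and lower for 51 (21.4%). Of them, 87 were nearly confined to 1 library, meaning at least 32-fold different or under 10 reads in a library, with 69 in the low line and 18 in the high line. They had 22112 reads in the low line and 2508 in the high line. The 5 named as highest in the low line, each from another start, had 1683 reads in the low line and 4 in the high line, 896 and 0, 743 and 1, 665 and 0, and 480 and 0. The 896 reads are at least 336-fold, the 665 at least 249-fold and the 480 at least 180-fold above the 3 reads that a count of 0 allows. The most abundant insert with no origin had 140 and 3757 reads, 23.9-fold higher in the high line (20.2 to 28.4). Their sequences are not given, since their origin was not established. The 151 inserts with no origin that were not nearly confined were higher for 52 (34.4%) and lower for 33 (21.9%). Without all 238, the counts over the inserts with an origin were 181 higher (36.6%) and 124 lower (25.1%).

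By shared first 20 nt, the 732 inserts fell into 517 starts, of which 382 had 1 insert and 135 had 2 to 13. Inserts that share a start were not separate measurements of the lines: their log2 ratios spanned 0.44 in the median, and 1 start had inserts past 1.5-fold in both directions. Counted by start, 209 (40.4%) were higher in the low line and 136 (26.3%) lower. The 10 most abundant starts held 35.4% of the reads in the low line and 51.3% in the high line. Reads with no adapter were over 50% of the same-start reads for 168 starts and under 10% for 152. Pooled over all starts, 83.6% of same-start reads in the low line and 85.2% in the high line had no adapter.

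GC content moved with the ratio. Over the 621 inserts that were not nearly confined, Pearson's r of GC content and log2 ratio was 0.39 and Spearman's rho 0.38, as a description of inserts that share 2 libraries and often a start. The median log2 ratio was -0.98 for 28 inserts under 35% GC, 0.01 for 250 with 35% to under 50%, 0.44 for 227 with 50% to under 60% and 0.65 for 116 with 60% or more. Inserts of 15 to 26 nt gave -1.86, -0.32, 0.46 and 0.68 in the same ranges. The classes differed at like GC content: from 35% to under 50% GC, the median was -2.52 for 35 mitochondrial tRNA inserts, -0.88 for 24 cytosolic tRNA inserts, 0.01 for 48 C/D box ends and 0.33 for 54 ribosomal inserts. The part of GC content in the ratios was not tested further.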

How the data were processed

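The authors deposited the count of every distinct 35 nt tag in each of the 2 libraries, not normalized and with the 3′ adapter still in the tags. Per the labels' protocols, the libraries were made with the Illumina v1.5 small RNA protocol and read on a Genome Analyzer IIx. The submitters' processing notes list Bowtie without a version or role. Genome build and alignment settings are not given in the sources used here. Adapter sequence was cut at the leftmost exact match of its first 6 nt with at most 20% mismatch in the rest, so the longest insert that can be found is 29 nt. For 629 inserts, most reads of shorter tags with the same 15 last bases ran on into adapter beyond the 6 nt. This was so for every insert with at least 10 such reads, and the other 103 had fewer.

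Counts were divided by each library's reads of at least 15 nt, 11094463 for the low line and 12481222 for the high line, and 0.5 reads were added for log2 ratios. Intervals are exact Clopper-Pearson for shares and exact conditional binomial for ratios, at 95%. With 1 library a line, 1.5-fold stood in for a test. The members and lists were chosen with earlier results of these data known. No RNA sequence file was used, so the origin by reference sequence that was planned was replaced by exact matches, on the read strand only, to 9 nt stretches typed from known bovine or mammalian RNAs after the inserts had been seen. A match is a description and does not place the insert in the genome, and an insert may hold several stretches. They were: for tRNA-Gly GTAGAATTC, GAGCATAGC and GTATCATGC; tRNA-Glu GTTAGGATT; tRNA-Asp GAGTATCCC; tRNA-Gln ATGGTGTAA; tRNA-Val GGTTATCAC; tRNA-Ala TGTAGCTCA; tRNA-Pro GGTATGATT; tRNA-Lys AGCTCAGTC; tRNA-His GTTAGTACT; tRNA-Ser GTAGTCGTG and tRNA-Leu GTCAGGATG. For mitochondrial tRNAs they were Pro GTTTAAATA, Glu TTGAATGAC, Cys TTGAATTGC, Tyr AGCATTAGA, Leu(UUR) CAGAGCCCG, Leu(CUN) TATCCGTTG, Asn TAGATTGAG, Met CATACCCCG and AGTAAGGTC, Phe AAAGCAAGG, Trp AAACAGACC, Ile GTTACTTTG, Ala TTGATTTGC, Thr GTACATCTA and Lys TTTTAAGTT. For mitochondrial rRNA they were 16S CTAGCCCAA and GAAAGGACA and 12S TTTGGTCCC. For 28S rRNA they were GTGTTACAG, GTCCGCGGC, TAGCTGGCG, CATTCGTAG, AACTTTGAA, AATAAGTGG, GGAAGACCC, CAAGTCCTT, GAGCGCTGA, GTAGGTAAG, CCCTCGACA, GTCAGTCGG and TGAACTATG. For 18S they were GAACGAAAG, GGAGGTTCG, CTGGCATGC, TCTTGGACC and AACGAGACT. For 5.8S they were GGTGGATCA, CACTTCGAA, AATTGCAGG and CTACGCCTG, and for 5S GTCTGATCT, GCTAAGCAG, AATACCGGG and GTCTACGGC. For Y RNA they were CTTGACTAG, TTTGACTGG and GGCTGGTCC, for U2 GATCAAGTG and for U1 GACTGCGTT. Of all 157792 distinct inserts of 27 to 29 nt, 4.43% held a stretch of nuclear-encoded rRNA, 2.28% of cytosolic tRNA, 1.45% of mitochondrial tRNA, 0.290% of mitochondrial rRNA, 0.233% of Y RNA and 0.0837% of spliceosomal RNA, and 3.15% ended in CTGA and 2 or 3 bases. The stretches do not cover whole RNAs, so inserts with no match can still come from them. Sequences were printed only for matched inserts, and 1 C/D box end nearly confined to the high line was also left out.

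The inserts named were the 10 most abundant, the top insert of the 10 most abundant starts, the 5 highest and 5 lowest in the low line ranked by the bound of the interval nearest to 1, and the top insert of each class. Of the 25 inserts so named, 1 is not reported here. The pair with G19T, the tRNA-Gln, tRNA-Pro, 18S and 5S inserts, the ends of 16S rRNA and the other forms of mitochondrial tRNA-Pro were chosen after their values were seen. Python 3.11.15 with numpy 2.4.6 and scipy 1.17.1 was used, and edgeR 4.0.16 and DESeq2 1.42.0 in R 4.3.3 gave scaling factors, with no model fitted. These factors were computed from the counts of the inserts of 15 to 29 nt with at least 100 reads over both libraries, without the tags that had no adapter. The cutting and the ratios were tested on simulated data.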

Additional observations from a re-analysis of the deposited data

How the results depend on the processing

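No paired analysis was possible because each line has 1 pooled library. Under the 5 other scalings, the counts past 1.5-fold over all 732 inserts and all 517 starts stayed within 1.5 times the reported ones, while those of ribosomal, mitochondrial ribosomal, Y RNA and spliceosomal inserts did not. Of the 25 named inserts 20 to 24 stayed on the same side of 1.5-fold, and none past it changed direction. Of those within it, 1 changed sign, from a log2 ratio of -0.07 to 0.17 and 0.14 when scaled to the 15 to 29 nt or the 18 to 26 nt inserts. Counts moved mainly where the number of inserts changed. With the first 7 nt of adapter required, 29 nt inserts cannot be found, which left 472 inserts, 195 higher and 112 lower in the low line. With a minimum of 50 reads there were 1403 inserts, 617 higher and 341 lower, and 415 starts higher and 248 lower. With a minimum of 500 reads there were 159 inserts, 56 higher and 51 lower, and 50 starts higher and 41 lower. At 2-fold, 189 inserts were higher and 144 lower, and 132 starts were higher and 114 lower. The inserts of 15 to 26 nt were not counted at 50 or 500 reads or at 2-fold, so these counts have no background. Inserts with an origin only, an alternative chosen after seeing the data, gave 181 higher. The share of reads in 27 to 29 nt inserts was 4.12% in the low line and 3.91% in the high line with no mismatch in the adapter, 2.70% and 2.75% with 7 nt required, and 3.73% and 3.73% without tags read once, so its order between the lines does not hold over these choices. T began 21.0% of the reads in the low line and 19.8% in the high line with 7 nt required, 27.7% and 26.8% with 50 reads, and 31.0% and 27.7% with 500 reads. Same-start reads in other lengths or with no adapter were 93.0% and 92.4% with 7 nt required, 91.8% and 91.8% with 50 reads, and 87.7% and 89.3% with 500 reads. With 1 mismatch allowed, 540 inserts had an origin. Depth limits inserts near 100 reads: the 12S rRNA insert with 98 and 69 reads was 1.60-fold higher in the low line with an interval of 1.16 to 2.21.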
